A study of Mus musculus with 55 samples.

Results

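Metestrus and proestrus were compared within Cnih3 KO females, 5 mice against 4, which are 9 of the 55 mice of the study. The mice were assigned by the genotype and estrous stage in their labels, and each mouse gave 1 library from 1 dorsal hippocampus, with no technical replicate. KO mice carried a Cnih3 gene without its exon 4 on a C57BL/6J background, and the WT mice used beside them (4 in metestrus, 5 in proestrus) were on the same background without the deletion. KO mice came from matings of Cnih3 mutants, whereas WT mice were in part offspring of such matings and in part offspring of WT pairs, so that not all WT mice were littermates of KO mice. Stage was read from vaginal cytology, and hormone levels were not analysed here. The metestrus mice were 13.29 to 22.57 weeks old and the proestrus mice 13 to 14.57 weeks, so that age and stage are partly confounded. WT mice were 13 to 18.57 weeks old in metestrus and 12 to 18.71 weeks in proestrus. Other KO groups set beside these were 10.86 to 23.43 weeks old in diestrus, 13 to 20.71 in estrus and 18.29 to 23.71 in males. Other WT groups were 11.71 to 17.14 weeks old in diestrus, 16.29 to 20.29 in estrus and 12 to 23.71 in males.

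Cnih3 encodes a cornichon protein, an auxiliary subunit that escorts AMPA-type glutamate receptors to the synapse and slows their closing. Proestrus is the stage at which estradiol and then progesterone peak before ovulation, and metestrus follows ovulation. In the rodent hippocampus the cycle is known for changes in the dendritic spines and synapses of CA1 pyramidal cells.

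Total counts were 49028581 to 61472649 in KO metestrus and 32817017 to 57963784 in KO proestrus (the 55 libraries ranged from 25881295 to 63547098). The lowest of the 9, proestrus replicate 4, also had the lowest quality weight, 0.576, against 0.635 to 1.94 in the other 8. Correlations of log2 CPM between any 2 of the 9 libraries were 0.958 to 0.988. CPM (counts relative to the library, a unit that scales each library to its TMM-adjusted total) is the level used throughout, and values per mouse are given in the order of the replicates. The choroid plexus list, which marks tissue next to the hippocampus, was uneven within both groups: its 14 genes summed to 1427 CPM in metestrus replicate 2 and 42.5 to 99.7 CPM in the other metestrus mice, and to 2304 CPM in proestrus replicate 1 and 74.2 to 223.7 CPM in the other proestrus mice. As a check of the tissue, Prox1, a transcription factor of dentate granule cells, was at 89.8 to 119.3 CPM in metestrus and 86.1 to 120.5 CPM in proestrus.

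Cnih3 (ENSMUSG00000026514, chromosome 1, 181352628 to 181460641 on the plus strand of GRCm38) was at 29.3, 32.7, 44.6, 28 and 29.1 CPM in KO metestrus and at 32.8, 31.3, 28 and 47.8 CPM in KO proestrus. The stages overlapped, with a log2 fold change of -0.03 ± 0.18 (SE) and a limma FDR of 0.939. WT mice had 33.5 to 51.6 CPM in metestrus and 21.6 to 62.5 CPM in proestrus, and the genotypes did not differ by the test in either stage (FDR 0.578 and 0.395). A count over the whole gene does not see the loss of 1 exon, so it does not check the genotype labels.

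Of 16168 genes tested, 706 were differentially expressed between KO metestrus and KO proestrus at FDR under 0.05 (4.37%). Of these DEGs, 463 were higher in metestrus (2.86%) and 243 lower (1.50%). The differences were small: the median absolute log2 fold change of the DEGs was 0.43, with a range of 0.19 to 2.31, and 39 exceeded 1. No gene reached an FDR below 0.0151, a value that 25 genes share. In 508 of the 706 DEGs the 5 metestrus values and the 4 proestrus values did not overlap, against 1385 of all tested genes (8.57%). The DEGs were called on these same values, so a higher share among them follows from the choice. The median over all genes was -0.02.

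The number of DEGs rested on how libraries were weighted and on single mice. edgeR's quasi-likelihood test called 0 genes (2682 at an unadjusted p under 0.05), voom without quality weights 0 (2605 at an unadjusted p under 0.05), and DESeq2 7, among them Max, Mbd1, Rian and Cdv3 (higher) and Yipf3 and Ccdc107 (lower). Without metestrus replicate 1 the count was 4, without replicate 2 it was 359, without replicate 3 it was 165 and without replicate 4 it was 1098. Without proestrus replicate 1 it was 1 (Prpf19), without replicate 2 it was 114 and without replicate 4 it was 233. The plot of calls by setting shows these counts. Over all genes, the number at an unadjusted p under 0.05 was 3777 by limma with weights. Each call of metestrus against proestrus given below, in KO or WT mice, is of the weighted limma fit and was lost under edgeR and under voom without weights. The contrasts with other KO stages and between genotypes were run by the weighted limma fit alone.

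**Figure D1:**
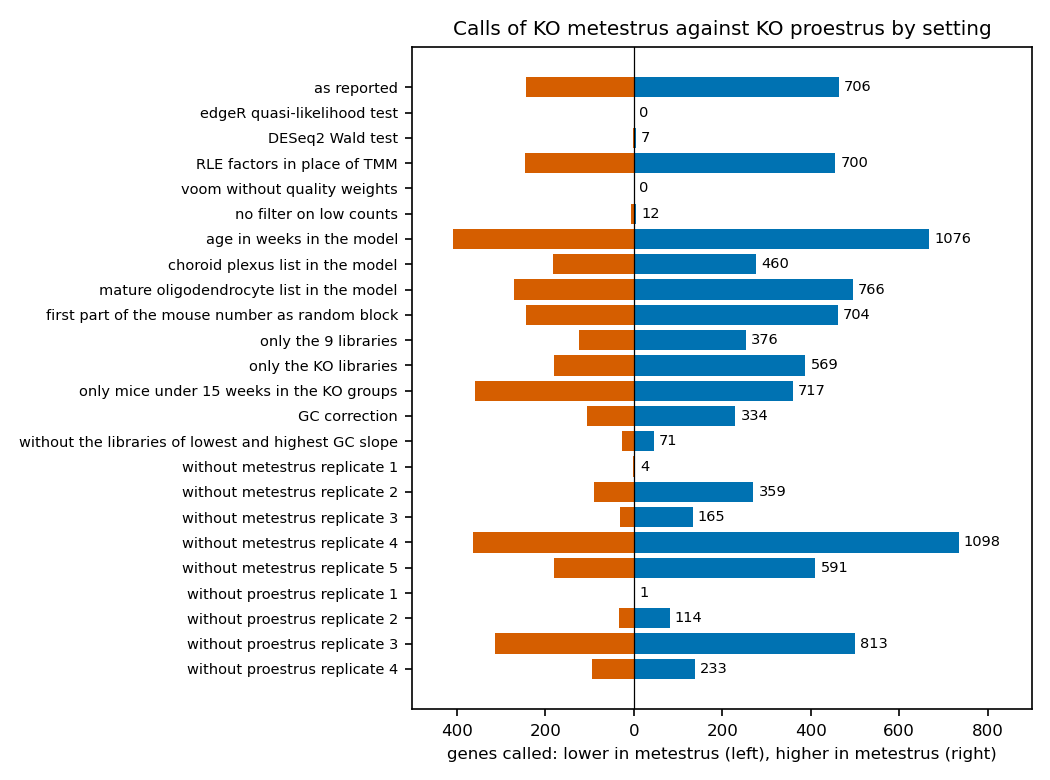
Number of genes called between KO metestrus and KO proestrus under each setting, as horizontal bars: genes lower in metestrus extend to the left, genes higher to the right, and the number beside each bar is their sum. The count is 706 as reported, 0 by edgeR and without quality weights, and between 1 and 1098 when 1 mouse is left out.

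**Figure D2:**
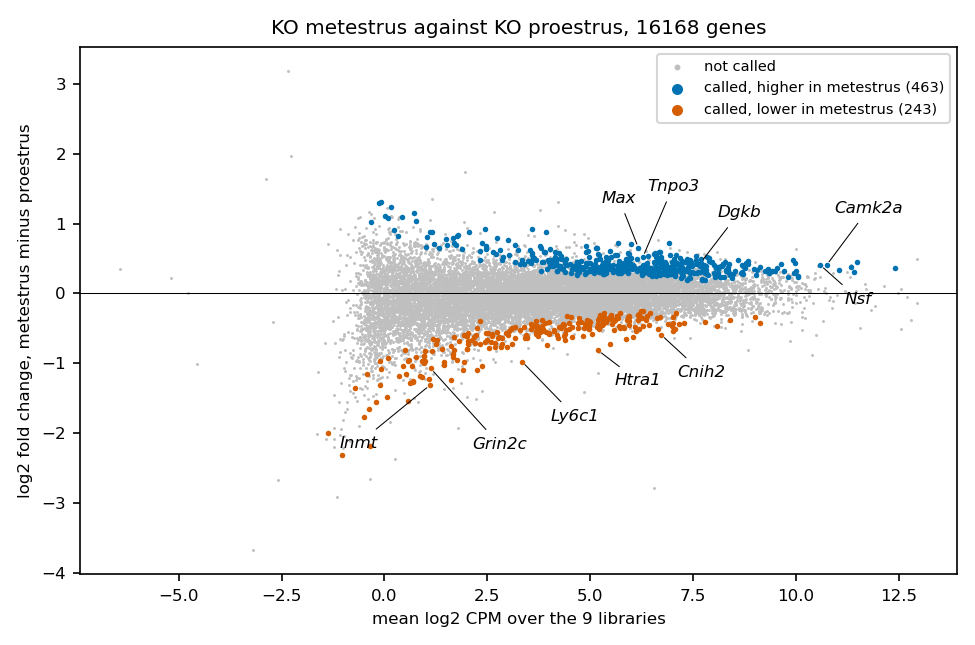
Log2 fold change of KO metestrus minus KO proestrus (vertical) against the mean log2 CPM over the 9 libraries (horizontal), one point per gene, with the 463 genes called higher in metestrus in blue and the 243 called lower in orange. Called genes with large changes lie at low levels, and called genes above a log2 CPM of 5 changed by less than 1.

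Max, the dimerization partner of the Myc family of transcription factors, was the gene called under the most settings. It was at 73.9, 104.6, 99.2, 87.0 and 93.0 CPM in KO metestrus and at 60.7, 57.0, 49.5 and 50.5 CPM in KO proestrus. Every metestrus mouse was above every proestrus mouse, and the log2 fold change was 0.65 ± 0.13 with an FDR of 0.0151. Max rose in WT metestrus too, by 0.60 ± 0.13 on the log2 scale (FDR 0.0240), with 78.5, 80.1, 98.6 and 83.7 CPM against 57.7, 66.2, 53.6, 50.7 and 45.5 CPM. The gene lies on chromosome 12 at 76937269 to 76962201, minus strand.

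Max and its partners bind the E-box CACGTG, so the promoter of Max is shown with those of Dusp1, a phosphatase that dephosphorylates MAP kinases, and Flt1, a VEGF receptor of endothelial cells, which were both lower in metestrus. They are RefSeq promoters of GRCm38.p6, each 300 bases long and printed on the strand of the gene, at chr12:76962199-76962498 for Max, chr17:26508423-26508722 for Dusp1 and chr5:147725962-147726261 for Flt1. Capitals mark the E-box CACGTG, the cAMP response element TGACGTCA and the shorter estrogen response element core GGTCA, searched on both strands.
Max: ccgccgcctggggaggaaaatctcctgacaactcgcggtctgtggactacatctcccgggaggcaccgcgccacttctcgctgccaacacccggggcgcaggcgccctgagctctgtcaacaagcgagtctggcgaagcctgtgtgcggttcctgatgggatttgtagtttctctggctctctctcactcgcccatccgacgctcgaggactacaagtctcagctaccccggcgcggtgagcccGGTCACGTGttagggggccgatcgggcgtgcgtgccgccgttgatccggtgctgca
Dusp1: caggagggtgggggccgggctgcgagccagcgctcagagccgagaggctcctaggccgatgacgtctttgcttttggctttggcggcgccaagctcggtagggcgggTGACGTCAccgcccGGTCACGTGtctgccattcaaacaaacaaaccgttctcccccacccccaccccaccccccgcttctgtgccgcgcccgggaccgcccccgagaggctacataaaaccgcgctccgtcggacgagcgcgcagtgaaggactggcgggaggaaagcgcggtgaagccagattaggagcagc
Flt1: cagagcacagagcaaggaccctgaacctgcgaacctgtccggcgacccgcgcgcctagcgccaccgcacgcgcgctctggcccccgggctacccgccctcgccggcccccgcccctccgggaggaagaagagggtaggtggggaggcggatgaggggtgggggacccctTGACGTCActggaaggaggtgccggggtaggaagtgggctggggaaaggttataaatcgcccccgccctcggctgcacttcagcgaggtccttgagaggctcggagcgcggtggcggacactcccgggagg

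Max and Dusp1, which moved in opposite directions, hold the same run GGTCACGTG, in which that core and the E-box share 2 bases. Dusp1 and Flt1 hold a cAMP response element. A full estrogen response element, GGTCANNNTGACC, was found in 0 of the 357 genes with a promoter among those higher in metestrus and in 0 of 192 among those lower, against 1 of 11313 tested genes. Its core GGTCA was in 42.3% and 37.5% of these genes against 41.7% of all. The E-box was in 13.7% and 10.4% against 11.4%, and the cAMP response element in 5.60% and 4.17% against 3.50%. These letters are matches in a short window, not sites shown to be bound.

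The smallest FDR was shared by 16 genes higher and 9 genes lower in metestrus. Of the genes higher in metestrus, Dgkb, Mbd1, Rasa3, Max and Ak4 had the smallest unadjusted p. Dgkb, a diacylglycerol kinase of neurons, was at 244.5, 243.3, 251.6, 220.3 and 229.2 CPM in metestrus and 172.7, 178.3, 164.3 and 179.7 CPM in proestrus. The stages were far apart for their spread, and the log2 fold change was 0.44 ± 0.08. Rasa3, which switches off Ras and Rap, was at 67.4 to 84.6 CPM against 41.6 to 54.9 CPM. Mbd1, which binds methylated CpG, was at 41.5 to 51.8 CPM against 26.6 to 37.3 CPM. Ak4, a mitochondrial adenylate kinase, overlapped slightly, with 47.8 to 68.4 CPM against 32.6 to 49.0 CPM. All had an FDR of 0.0151.

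By size alone, among DEGs with no overlap, the 10 largest increases were of Gm2223, Tcte1, Gm18180, Unkl, Clvs1, Gm7664, Sacm1l, Dapk3, Zfp964 and Irs1, with log2 fold changes of 0.82 to 1.16. Gm2223, Gm18180 and Gm7664 are processed pseudogenes at 0.200 to 2.95 CPM over the 9 mice, whose reads may come from their parent genes. Of 1168 processed pseudogenes tested, 12 were called higher and 1 lower, smaller shares than the 2.86% and 1.50% of all genes. Clvs1, a neuronal protein of endosomal sorting, was at 22.0, 20.4, 15.0, 14.4 and 15.5 CPM in metestrus and 10.8, 9.12, 8.83 and 4.21 CPM in proestrus, a log2 fold change of 0.92 ± 0.20. Sacm1l, a phosphoinositide phosphatase of the endoplasmic reticulum, was at 17.0 to 28.2 CPM against 4.98 to 15.8 CPM. Irs1, which relays insulin receptor signals, was at 3.83 to 6.90 CPM against 1.00 to 3.41 CPM. Proestrus replicate 4, the shallowest library, was the lowest of all 9 for Clvs1, Sacm1l, Irs1 and Unkl. With only KO mice under 15 weeks Gm18180, Sacm1l, Dapk3 and Zfp964 were not called, and Dapk3 was at 0.38 on the log2 scale.

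Genes of synaptic vesicle fusion were among those higher in metestrus. Fusion is driven by SNARE proteins, which NSF and its SNAP adaptors take apart afterwards. Of 14 genes of this machinery, a group put together after the values were seen, 5 rose (among them Nsf, Napb, Napg and Snap25) and none fell, or 35.7% against 2.86% of all genes, a share that the choice of the group favours, with a group median of 0.23 on the log2 scale. Nsf was at 1918, 1660, 1702, 1662 and 1800 CPM in metestrus and 1255, 1328, 1519 and 1257 CPM in proestrus, a log2 fold change of 0.40 ± 0.10 (FDR 0.0224). Napb rose by 0.36 ± 0.08 (FDR 0.0151), from 609 to 685.1 CPM in proestrus to 731.3 to 910.6 CPM in metestrus. In WT mice the same group had a median of 0.01 and no call.

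Other whole families were also chosen after the values were seen, so their shares of calls are descriptions, to be read beside the 2.86% of all genes higher and 1.50% lower. Of 20 cytosolic aminoacyl-tRNA synthetases, which charge tRNAs with amino acids, 4 rose (20%: Cars, Nars, Wars and Yars), none fell and 19 had a positive log2 fold change. Of 23 importins and exportins, which carry proteins through the nuclear pore, 5 rose (21.7%: Cse1l, Ipo5, Kpna1, Kpna3 and Tnpo3) and 20 were positive. Tnpo3, the importer of splicing factors, was at 99.1, 90.7, 90.8, 84.7 and 92.4 CPM in metestrus against 60.4, 64.1, 75.6 and 56.0 CPM in proestrus (log2 fold change 0.52 ± 0.11, FDR 0.0151). Of 46 ubiquitin-specific proteases 7 rose and none fell, but 25 were positive, 21 were negative and the median was 0.008. Of 34 Vps trafficking proteins 5 rose, none fell and 25 were positive. Of 13 Prpf splicing factors 3 rose, none fell and 9 were positive. Of 346 Zfp zinc finger genes 17 rose and 3 fell, and the 5.78% called were close to the 4.37% of all genes. Of 187 Tmem transmembrane proteins 1 rose and 7 fell (4.28% called), and of 55 G protein-coupled receptors of the Gpr and Adgr names 1 fell (1.82%).

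Among lists of synaptic and metabolic genes, calls were few and split by list. Their shares are to be read beside the 2.86% of all genes called higher. Of 17 postsynaptic scaffold and CaMKII genes, Camk2a and Dlgap2 rose (11.8%) and the median was 0.01. Camk2a, the kinase subunit needed for long-term potentiation, was at 2042, 2222, 2072, 1875 and 1647 CPM in metestrus and 1539, 1499, 1267 and 1557 CPM in proestrus (log2 fold change 0.41 ± 0.11, FDR 0.0303). Camk2b was at 1100 to 1380 CPM against 1137 to 1332 CPM (FDR 0.706). Of 22 cholesterol synthesis genes, Hmgcs1 and Idi1 rose (9.09%), 18 were positive and the median was 0.11. Hmgcs1, an early enzyme of the mevalonate pathway, was at 182.4 to 217.5 CPM against 128.3 to 157.0 CPM. Of 37 genes of the proteasome list, Psmd1, Psmd2 and Psmd5 rose (8.11%), by 0.35 to 0.39, while the list's median was -0.001.

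Glutamate receptor genes held 2 calls, both lower in metestrus. They were 6.25% of the AMPA and 16.7% of the NMDA receptor list, 1 gene each, beside 1.50% of all genes. Cnih2, the cornichon most like Cnih3 in function and the main one of hippocampal AMPA receptors, was at 78.1, 64.6, 90.3, 103.5 and 98.6 CPM in KO metestrus and 132.8, 130.3, 113.5 and 187.7 CPM in KO proestrus. The groups did not overlap, and the log2 fold change was -0.59 ± 0.16 (FDR 0.0310). After the GC correction described further on it was -0.37 and was not called (FDR 0.0650). It lies on chromosome 19 at 5092868 to 5098521. Over the KO cycle the mean log2 CPM of Cnih2 was 6.42 ± 0.28 (SD, n = 5) at metestrus, 6.57 ± 0.27 (n = 6) at diestrus, 7.11 ± 0.31 (n = 4) at proestrus and 6.55 ± 0.21 (n = 6) at estrus, so proestrus stood above the other 3 stages, which lay within their spread of each other. In WT mice the values overlapped, at 80.2 to 124.0 CPM in metestrus and 89.2 to 222.7 CPM in proestrus (log2 fold change -0.19, FDR 0.645), and the interaction with genotype did not pass (unadjusted p = 0.0735, FDR 0.346).

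Cnih2 was the only one of 16 AMPA receptor subunit and auxiliary genes called. The pore-forming subunits Gria1 and Gria2 had log2 fold changes of 0.04 ± 0.10 and -0.01 ± 0.13. Of the other cornichons, Cnih1 and Cnih4 were at -0.15 ± 0.08 and -0.08 ± 0.07 and did not pass. Grin2c, an NMDA receptor subunit best known from the cerebellum, was at 1.29, 1.85, 1.77, 1.55 and 2.12 CPM in KO metestrus and 4.19, 3.62, 2.33 and 2.20 CPM in KO proestrus, a log2 fold change of -1.08 ± 0.25 (FDR 0.0193). In WT mice 4 of the 5 proestrus values, 1.03 to 1.64 CPM, were below the metestrus values of 1.71 to 2.24 CPM and the other, 3.23 CPM, was above them, and the interaction had an unadjusted p of 8.63e-05 and an FDR of 0.117. The main hippocampal subunits Grin1, Grin2a and Grin2b were at -0.35 ± 0.21, 0.07 ± 0.13 and -0.16 ± 0.13 and were not called.

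**Figure D3:**
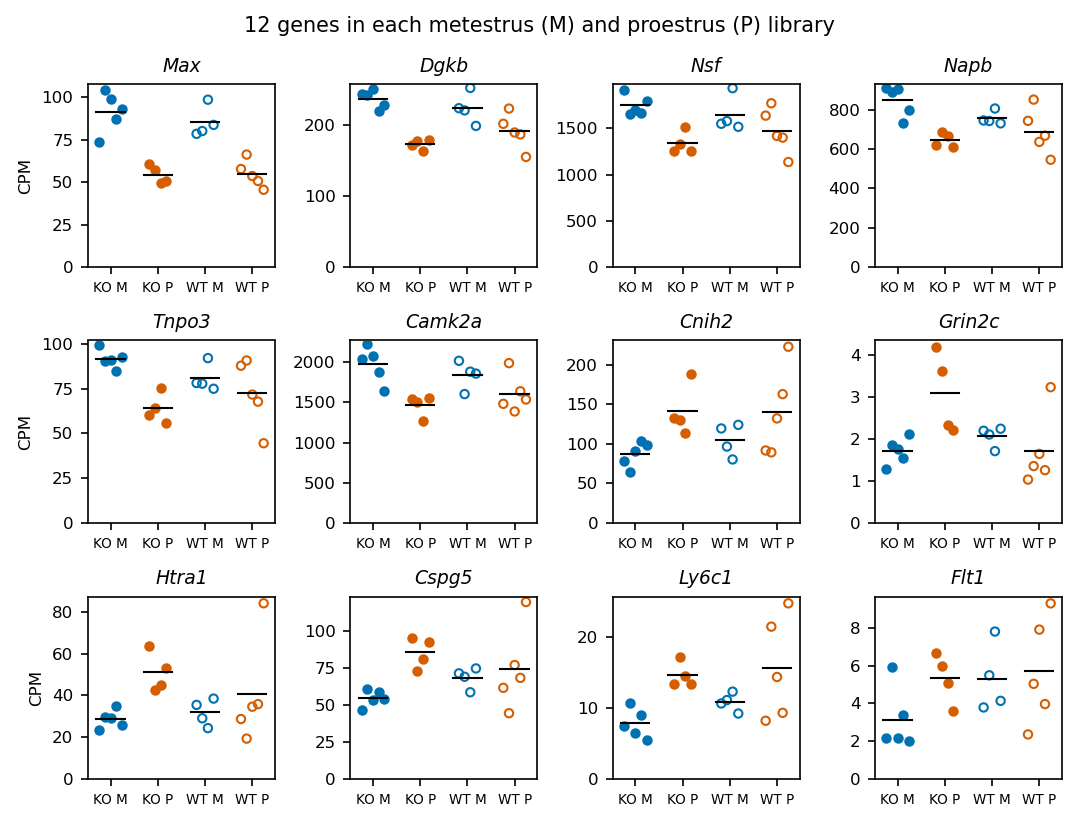
CPM of 12 genes in every metestrus (M) and proestrus (P) library, KO as filled and WT as open circles, with the mean as a black line and the vertical axis from 0. In KO mice the stages do not overlap in 11 of the 12 genes, the exception being Flt1; in WT mice Max alone separates the stages.

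Of the genes lower in metestrus, Gm37069, Snx25, Tmem205, Htra1 and Sh2b2 had the smallest unadjusted p, all at the shared FDR of 0.0151. Htra1, a secreted serine protease, was at 23.5, 29.8, 29.3, 34.7 and 26.0 CPM in metestrus and 63.4, 42.6, 44.8 and 53.0 CPM in proestrus (log2 fold change -0.82 ± 0.17). The groups were clearly apart in KO mice, whereas WT mice overlapped, at 24.3 to 38.4 CPM in metestrus and 19.3 to 84.1 CPM in proestrus. Tmem205, a membrane protein, was at 31.7 to 40.4 CPM against 44.5 to 52.4 CPM. Snx25, a sorting nexin, was at 14.3 to 21.0 CPM against 19.3 to 25.9 CPM, and its log2 fold change of -0.64 was -0.42 with only KO mice under 15 weeks (2 in metestrus, 4 in proestrus), where it was not called. Sh2b2, an adaptor of receptor tyrosine kinases, was at 1.42 to 2.57 CPM against 3.21 to 4.41 CPM.

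The 10 largest decreases among DEGs with no overlap were of Gm45182, Cldn14, Gm37069, Gm10766, Grin2c, B130021K23Rik, Ly6c1, Sh2b2, Kcnh2 and Catsperz, with log2 fold changes of -0.92 to -1.49. Gm45182, Gm37069, Gm10766 and B130021K23Rik are annotated as TEC, transcripts that await experimental proof. Of 306 TEC genes tested, 9 were called lower and 0 higher, beside 1.50% and 2.86% of all genes. With only KO mice under 15 weeks, Kcnh2 alone of the 10 decreases was still called (log2 fold change -1.40). In that subset Gm10766 was at -0.73 and Catsperz at -0.58 on the log2 scale. Kcnh2, an ERG-type potassium channel, was at 3.18, 2.01, 1.88, 2.80 and 3.27 CPM in metestrus and 5.23, 5.97, 3.97 and 4.01 CPM in proestrus. It was the 1 call among 52 potassium channel genes (1.92%, beside 1.50% of all genes called lower), and 40 of the 52 had a negative log2 fold change. Of 20 leucine-rich repeat adhesion genes, a family chosen after the values were seen, Lrfn1, Lrfn3 and Rtn4r fell (15%, beside 1.50% of all genes) and none rose. After the GC correction none of the 3 was called, with log2 fold changes of -0.34 for Lrfn1, -0.46 for Lrfn3 and -0.39 for Rtn4r. Lrfn3, a synaptic adhesion molecule, was at 7.00 to 10.3 CPM against 13.1 to 15.3 CPM. Cspg5, a brain chondroitin sulfate proteoglycan, was at 46.4 to 60.6 CPM against 73.0 to 94.7 CPM (log2 fold change -0.63 ± 0.13, FDR 0.0151).

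Of 10 endothelial markers, Flt1, Ly6c1 and Slco1a4 fell in KO metestrus (30%, against 1.50% of all genes), none rose, 9 were negative and the median was -0.90, against -0.02 over all genes. Ly6c1 was at 7.45, 10.7, 6.52, 8.99 and 5.53 CPM in metestrus and 13.4, 17.1, 14.5 and 13.4 CPM in proestrus (log2 fold change -0.98 ± 0.24, FDR 0.0244). Slco1a4, an organic anion transporter of the blood-brain barrier, was at 2.698, 7.42, 3.48, 5.01 and 1.68 CPM against 7.36, 8.47, 7.09 and 4.88 CPM, and Flt1 was at 2.18, 5.94, 2.19, 3.36 and 2.00 CPM against 6.66, 5.99, 5.05 and 3.61 CPM. Metestrus replicate 2 lay among the proestrus mice for both, and metestrus replicate 4 did so for Slco1a4. The defining markers Cldn5 and Pecam1 had log2 fold changes of -0.74 ± 0.34 and -0.90 ± 0.32 and did not pass (FDR 0.174 and 0.0847).

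The 10 endothelial genes summed to 24.9, 50.8, 27.6, 35.8 and 23.2 CPM in KO metestrus and 50.1, 53.2, 48.9 and 39.2 CPM in KO proestrus, with none at 0 in any of the 9 libraries. Choroid plexus RNA was highest in metestrus replicate 2 and proestrus replicate 1. With the choroid plexus list as a covariate the log2 fold changes were -0.91 for Ly6c1, -1.08 for Slco1a4 and -0.94 for Flt1, and Flt1 was no longer called. With only mice under 15 weeks Ly6c1 was at -0.83, Flt1 at -0.66 and Slco1a4 at -0.54, and none of them was called. The endothelial median was -0.47 in that subset, against -0.65 to -1.02 when 1 mouse was left out. In bulk tissue, fewer cells of a type and less RNA per cell cannot be told apart. Outside the list, and picked after their values were seen, the endothelial transporter Mfsd2a was at 5.06 to 7.77 CPM against 8.81 to 11.3 CPM (log2 fold change -0.57 ± 0.14, FDR 0.0244), and Klf2, Ly6a, Adgrf5 and the basement membrane collagen Col4a1 also fell. The change of Adgrf5, -1.27, was -0.79 without metestrus replicate 5 and -0.09 with only mice under 15 weeks, and was called in neither. In WT mice the list's median was -0.11 with no call, and its interaction had no call.

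**Figure D4:**
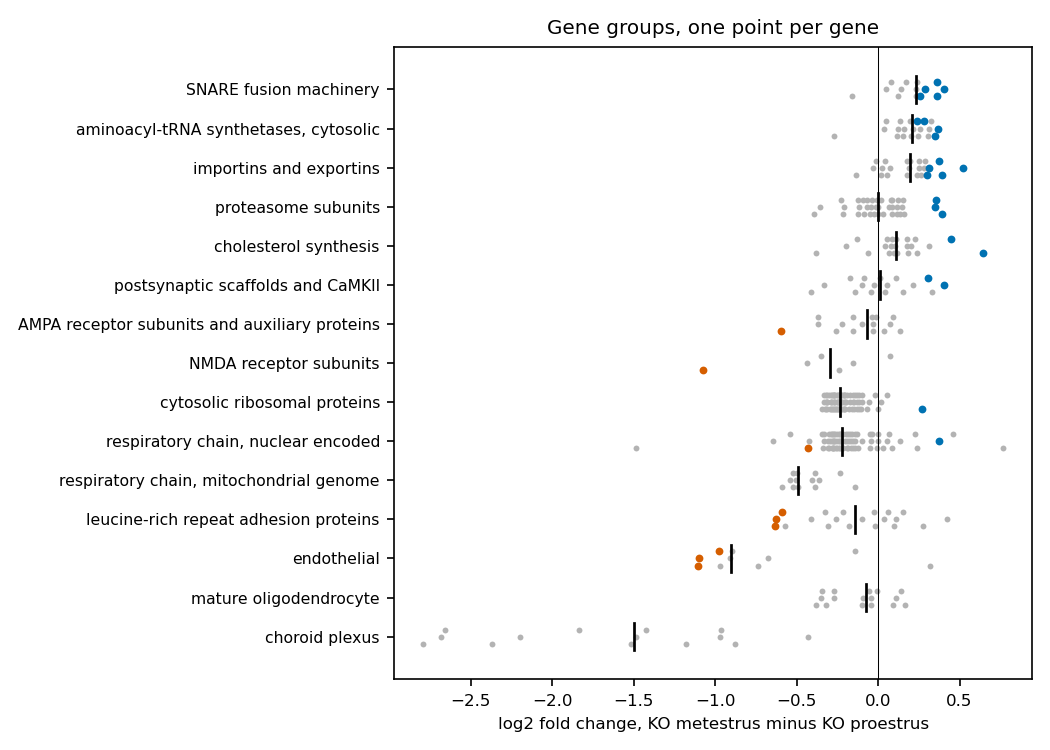
Log2 fold change of KO metestrus minus KO proestrus for each gene of 15 groups, one point per gene, with called genes in blue (higher) or orange (lower), other genes in grey and the group median as a black bar. SNARE, tRNA synthetase and importin genes lie mostly to the right of 0, ribosomal, respiratory chain and endothelial genes mostly to the left, and the 14 choroid plexus genes spread widely below 0 with no call.

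Large groups with mostly 1 sign but few calls were those of the ribosome and the respiratory chain. Of the ribosomal list 1.18% and of the nuclear-encoded respiratory chain list 2.44% were called, beside 4.37% of all genes. Of 85 cytosolic ribosomal protein genes, 81 had a negative log2 fold change and the median was -0.23, with 1 call, the increase of Rpl7l1, a paralog known for ribosome assembly. The list summed to 24260 to 29620 CPM in metestrus and to 27980, 28330, 32000 and 39050 CPM in proestrus, the highest in proestrus replicate 4, the shallowest library and the one of extreme GC and length slopes. Of 82 nuclear-encoded respiratory chain genes 70 were negative, with a median of -0.22 and calls of Sdha (higher) and Cox8a (lower). The 13 mRNAs of the mitochondrial genome were all negative, median -0.49, with no call. They summed to 11110 to 22360 CPM in metestrus and 18850 to 34050 CPM in proestrus. The share of all counts on mitochondrial genes was 1.86% to 3.46% in metestrus and 3.06% to 5.23% in proestrus.

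Genes of steroid and stress signalling held single calls. Each was 1 gene, or 6.25% to 12.5% of its list, beside 1.50% of all genes called lower. Of 8 steroid receptor genes, Pgrmc2, a heme-binding progesterone receptor membrane component, fell by 0.41 on the log2 scale (21.6 to 25.7 CPM against 25.4 to 36.2 CPM, FDR 0.0433). The nuclear receptors Esr1 and Pgr had log2 fold changes of 0.35 ± 0.25 and -0.07 ± 0.12 and were not called. Of 10 estrogen responsive genes tested, Cxcl12, a chemokine, fell, and of 13 immediate early genes Dusp1 fell, from 9.97 to 12.5 CPM in proestrus to 5.61 to 8.59 CPM in metestrus, while Fos was at 14.3 to 38.7 CPM against 25.8 to 39.7 CPM. Nfkbia (of 16 glucocorticoid and FoxO genes), Atf5 (of 15 Atf4 genes), Manf (of 14 endoplasmic reticulum chaperones) and B2m (of 13 antigen presentation genes) each fell as the only call of its list.

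No gene was called among the 16 of mature oligodendrocytes (median -0.07), the 12 each of oligodendrocyte precursors, astrocytes and microglia (-0.03, 0.03 and -0.27), the 6 of pericytes and smooth muscle (-0.21), the 8 of meningeal fibroblasts (-0.56), the 14 of choroid plexus (-1.50) and the 9 of dentate granule cells (-0.01). GABA-A receptor, neurotrophin, opioid, neurosteroid, clock and heat shock lists had no call either. Nor did the lists of ependymal cells, pituitary, blood, thalamus, CA1, CA2 and CA3 pyramidal cells and interneurons. These lists do not hold every gene of a cell type. Outside them, and picked after its values were seen, Olig1 of the oligodendrocyte lineage was called lower (log2 fold change -0.45, FDR 0.0449). It was not called after the GC correction (FDR 0.162). The choroid plexus median was 0.12 with only mice under 15 weeks and -0.36 without proestrus replicate 1. Of 53 splicing factors Hnrnph2 and Sf3b3 rose (3.77%), and of 15 motor proteins Dync1i1 rose (6.67%, a single gene), beside 2.86% of all genes called higher. Of 9 nuclear long non-coding RNAs, Rian rose while the other 8 were negative: Malat1 was at 649.2, 1473, 956.3, 1725 and 767.4 CPM against 2096, 1777, 1717 and 2016 CPM and did not pass (log2 fold change -0.88 ± 0.34, FDR 0.105). Every metestrus mouse but replicate 4 was below every proestrus mouse. The remaining genes of the cycle that were looked up, Otx2, Prlr, Prl, Gpr17, Srd5a3, Gal3st1, Plin4, Depp1 and Avpr1b, were not called (FDR 0.113 to 0.888).

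The base composition of the transcripts moved with the stage. The median GC content was 47.2% in genes called higher in metestrus, 56.4% in those called lower and 49.8% in all tested genes, and the median transcript length was 3728, 2315 and 2909 bases. Within libraries, the log2 CPM of the fifth of genes richest in GC, relative to the fifth poorest in GC, was -0.34 to 0.02 in KO metestrus and 0.10 to 0.27 in KO proestrus, without overlap. The lowest value was that of metestrus replicate 2 and the highest that of proestrus replicate 4, and without both the count was 71 DEGs. WT mice overlapped, at -0.12 to 0.11 in metestrus and -0.08 to 0.34 in proestrus. After each library was corrected for GC, a step added after the data were seen, 334 genes were called, of which 305 were among the 706. Of the genes named above that were looked up individually, the calls of Sdha, Sacm1l, Idi1, Hmgcs1, Psmd1, Psmd5, Irs1, Klf2, Ly6a and Col4a1 were also lost with it. So were those of Cldn14, Catsperz, Gm45182, Tcte1, Cxcl12, Atf5, Cox8a, Rpl7l1, Nars, Yars, Kpna3, Hnrnph2 and Dync1i1. The calls of Rian, Tsc22d4, Inmt and Nfic, described below, were lost as well. Max, Dgkb, Mbd1, Nsf, Napb, Tnpo3, Camk2a, Htra1, Cspg5, Grin2c, Ly6c1 and Dusp1 were called with it.

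Among the KO stages, diestrus against proestrus gave 5550 DEGs (34.3%), metestrus against diestrus 1689 (10.4%), metestrus against proestrus 706, proestrus against estrus 82 (0.507%) and metestrus against estrus 0 (0%; 1367 genes at an unadjusted p under 0.05 by limma, the one tool run for it). The contrasts share libraries and the groups differ in age, so values are given side by side only. The 463 and 243 genes were chosen for the difference of metestrus from proestrus, so the place of those stages is fixed by the choice and is a description. The highest of the KO stage means was in diestrus for 275 of the 463 genes, metestrus for 168 and estrus for 20, and the lowest for the 243 genes was in metestrus for 121, diestrus for 100 and estrus for 22. The median log2 fold change of the 463 genes was 0.39 for metestrus minus proestrus, 0.47 for diestrus minus proestrus, -0.07 for metestrus minus diestrus, -0.28 for proestrus minus estrus and 0.12 for metestrus minus estrus. For the 243 genes it was -0.54, -0.55, -0.01, 0.38 and -0.17.

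**Figure D5:**
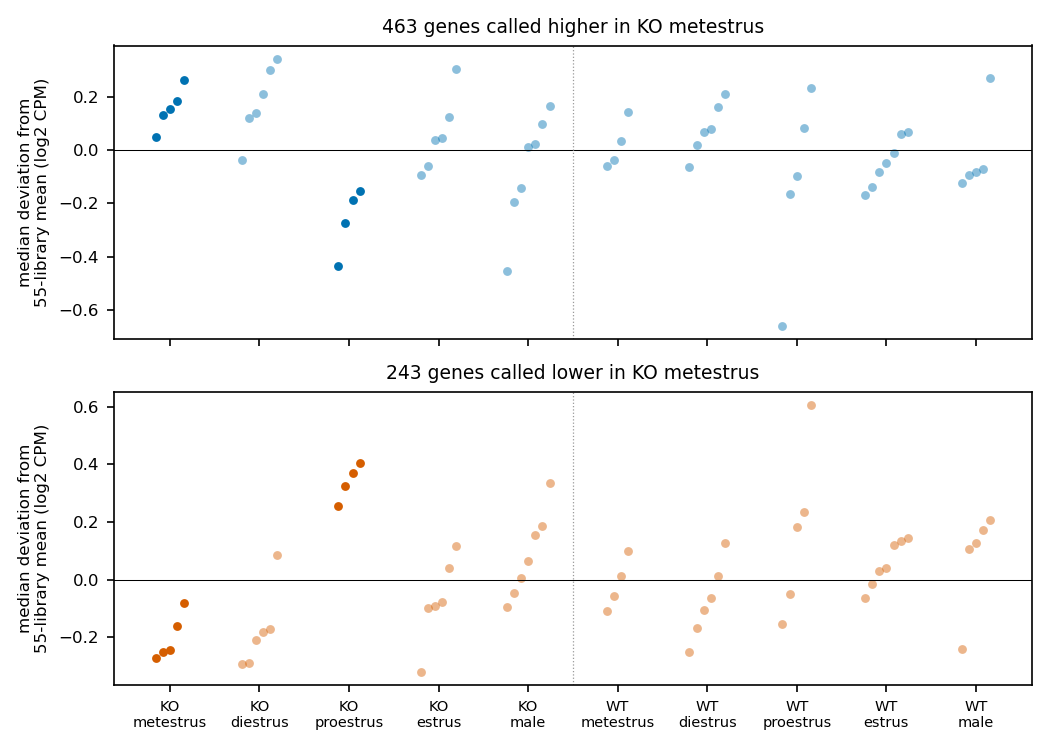
Median deviation of the 463 genes called higher (top, blue) and the 243 called lower (bottom, orange) in KO metestrus from their mean log2 CPM over all 55 libraries, one point per library in each of the 10 groups, with the groups that chose the genes in full colour. KO metestrus and KO proestrus separate by construction, and 1 WT proestrus library lies beyond all KO proestrus libraries in both panels. That library, replicate 5, had the lowest quality weight of all 55 (0.194).

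Among libraries that did not choose the genes, the deviation of the 463 genes was -0.06 to 0.14 in WT metestrus and -0.66 to 0.23 in WT proestrus, so these groups overlapped. That of the 243 genes was -0.11 to 0.10 and -0.16 to 0.61. KO males, at -0.45 to 0.17 and -0.09 to 0.34, also reached the values of KO proestrus. The extreme libraries were WT proestrus replicate 5 and KO male replicate 6, with low quality weights (0.194 and 0.280). Their GC slopes were high (0.34 and 0.31) and their length slopes low (-0.61 and -0.78). Whether these traits set their values was not tested.

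WT metestrus against WT proestrus gave 124 DEGs (0.767%), 11 higher and 113 lower in metestrus, from 9 other libraries. The interaction, which tests whether the stage difference depends on genotype, gave 0 DEGs (0%), with 2648 genes at an unadjusted p under 0.05 by limma, 647 by edgeR and 703 by DESeq2, and a lowest FDR of 0.117. It gave 1 DEG (Cpt2) without KO metestrus replicate 3, 76 without WT metestrus replicate 4 and 149 without WT proestrus replicate 4. Of the 706 KO DEGs, 501 (71.0%) had the same sign in WT mice, against 52.6% of all genes, and their median log2 fold change in WT was 0.05 for the 463 and -0.10 for the 243.

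DEGs of both genotypes numbered 11, which is 1.56% of the KO and 8.87% of the WT DEGs, and all 11 changed in the same direction. Those that rose included Max and Rian, and Inmt, Ppp1r18, Cbx8, Pbxip1, Tsc22d4, Zfp688, Mvb12a and Nfic fell. Rian, an imprinted long non-coding RNA that hosts small RNAs, was at 138.7, 197.4, 182.8, 146.9 and 119.7 CPM in KO metestrus, 118.9, 134.5, 71.8 and 91.3 CPM in KO proestrus, 153.9, 159.2, 157.2 and 131.7 CPM in WT metestrus and 107.0, 131.6, 98.9, 118.7 and 75.6 CPM in WT proestrus. The KO stages overlapped by a little and the WT stages did not, and the log2 fold changes were 0.44 ± 0.12 and 0.48. Tsc22d4, a transcriptional regulator, was at 77.0 to 145.1 CPM in KO metestrus against 152.1 to 164.4 CPM in KO proestrus, and at 92.0 to 124.0 CPM in WT metestrus against 138.8 to 204.5 CPM in WT proestrus. Inmt, an N-methyltransferase, had log2 fold changes of -1.31 in KO and -1.66 in WT mice.

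The lowest interaction FDR, which did not pass, was shared by 19 genes, of which Cpt2, B130021K23Rik, Snx25, Tcirg1 and Zfp526 had the smallest unadjusted p. Cpt2, the inner membrane carnitine palmitoyltransferase of fatty acid oxidation, was at 8.56, 11.1, 6.32, 11.1 and 8.01 CPM in KO metestrus and 8.86, 6.39, 6.13 and 5.24 CPM in KO proestrus. In WT mice it was lower in metestrus, at 5.59, 6.25, 6.97 and 6.26 CPM against 9.79, 11.3, 12.1, 7.34 and 6.74 CPM (log2 fold change -0.69, FDR 0.0279). The interaction had an unadjusted p of 3.99e-05 and an FDR of 0.117. Tcirg1, a subunit of the lysosomal proton pump, fell in WT metestrus (log2 fold change -0.85, FDR 0.0113) and had a log2 fold change of 0.15 in KO mice (FDR 0.621).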

How the data were processed

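The members, gene lists and named genes were chosen with earlier results of these data known. The authors aligned reads to GRCm38 with STAR 2.7.9a and counted them per gene with featureCounts 2.0.3, per the submitters' processing notes and methods. They deposited these raw counts. Of the counts from 1 to 10, 60.1% were even, so reads of a pair may count singly. The methods of the paper do not say how pairs were counted. Their deposited log2 CPM served as a check and differed by rounding only from the log2 CPM computed here over 16164 genes. Deposited CPM and transcript tables were not used here. A single sample column (1) of the deposited counts belongs to no listed sample and was not used. Of 55487 genes (after 287 repeated lines), the 16168 that exceeded 1 CPM in 10 or more libraries and were not among 5 ribosomal RNA genes entered the tests.

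TMM factors came from edgeR 4.0.16. The model was voomWithQualityWeights with moderated variances (limma 3.58.1, R 4.3.3), with 1 mean for each of the 10 groups over 55 libraries. Stage differences and the interaction were contrasts of these means, with the Benjamini-Hochberg FDR over all genes tested and a threshold of 0.05. Errors of log2 fold changes are standard errors. P-values measure the spread between mice. Total counts per library set the counting error, which was not separated from that spread and weighs most on genes of a few CPM.

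Alternatives were edgeR's quasi-likelihood test, DESeq2 1.42.0, RLE factors, no quality weights, no filter, age, choroid plexus or oligodendrocyte lists as covariates, the leading digits of mouse names as random block, subsets of libraries, and each mouse left out. A GC correction, a fit without the 2 libraries of extreme GC slope, and the families named as such were added after the data were seen. The steps were also run on simulated counts with known changes. The simulated libraries did not differ in quality or GC slope, so that run does not test the quality weights. Positions are from GENCODE M21 and promoters from RefSeq, both on GRCm38.

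Genes named are the 10 largest DEGs in each direction without overlap and with a mean log2 CPM of at least 0, the 5 of smallest FDR in each direction and in the interaction (ties taken by unadjusted p), genes the paper names, up to 4 DEGs of each list with defining members, and genes said to be picked after their values were seen. The DEGs of both genotypes and those called by few settings are named as sets, except for a few genes that are not reported here.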

Additional observations from a re-analysis of the deposited data

Results flagged for a closer look

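Of 130 sets of values (65 genes in the KO metestrus or the KO proestrus mice), 7 had 1 mouse far from the others of its group, or 5.38%, where chance flags about 1 in 20. In metestrus, replicate 1 was low for Gm10766 (0.304 CPM, others 0.985 to 1.41) and for Pgrmc2 (21.6 CPM, others 24.5 to 25.7). Replicate 2 was high for Prlr (20.1 CPM, others 1.99 to 2.95), the prolactin receptor, and for Snx25 (21.0 CPM, others 14.3 to 15.0). Prlr, which choroid plexus expresses strongly, is itself 1 of the 14 genes of the choroid plexus list. That it moved with the list in that mouse is therefore partly by construction. Replicate 4 was high for Tmem205 (40.4 CPM, others 31.7 to 33.1). In proestrus, replicate 4, the shallowest library, was low for Unkl (1.84 CPM, others 4.35 to 4.37) and Zfp526 (1.57 CPM, others 1.97 to 2.00). What set these values apart was not tested.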

How the results depend on the processing

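The count of KO DEGs, 706, was 0 by edgeR, 7 by DESeq2, 0 by voom without quality weights, 12 without the filter, 1076 with age in the model, 460 with the choroid plexus list, 376 with only the 9 libraries, 334 with the GC correction, 71 without the libraries of extreme GC slope, and between 1 and 1098 without 1 mouse. DESeq2 left 9406 genes without an adjusted p. It stayed within 1.5 times with RLE factors, the oligodendrocyte list, the random block, only KO libraries and only mice under 15 weeks, where 717 genes split into 359 higher and 358 lower and 247 were among the 706. The WT count, 124, was 0 by edgeR, 4 by DESeq2, 0 without weights, 8 without the filter, 200 with age, 199 with the choroid plexus list, 38 with the GC correction, and between 0 and 461 without 1 mouse. The interaction count, 0, was 2 without the filter (Nr0b2 and Gm25549) and between 0 and 149 without 1 mouse. The cause of these changes was not tested, except that the unfiltered fits tested 45263 genes and the subsets fewer mice. The 83 called genes among the 123 looked up individually kept their sign in each of the settings that fitted them, and 47 were called after the GC correction. List medians moved by over 1 SD in 14 of 492 comparisons of a list and a setting. Levels under 1 CPM rest on few reads, and their differences are the least certain.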
